A study of Mus musculus with 12 samples.

Results

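The genes described here are 8 named RNA regulators and targets of the let-7 microRNA: Lin28a, Lin28b, Trim71, Igf2bp1, Igf2bp2, Igf2bp3, Hmga2 and Dis3l2. They and the related lists below were chosen by name, with earlier results of these data known. Each of the 8 was followed through the probe sets annotated with its symbol alone. Such probe sets were found for 7 of the 8, out of 19938 genes measured in this way; Igf2bp2 had none and was not analysed here. The cells were Esrrb_R, a rescue clone of AINV15 mouse embryonic stem (ES) cells. In all groups the endogenous Esrrb, an orphan nuclear receptor of the self-renewal network, was silenced by a constitutive short hairpin RNA, and a hairpin-resistant, GFP-tagged Esrrb was expressed from a doxycycline (Dox)-dependent promoter through rtTA. At day 0 the cells were in 1 µg/ml Dox, and on days 1, 3 and 5 they had been without it in otherwise unchanged medium with serum and LIF. Each day had 3 biological replicates, 12 Affymetrix Mouse Gene 1.0 ST arrays in all. All values come from 1 clone. No arrays followed Dox removal or time in culture without loss of Esrrb, so these cannot be told apart here.

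Lin28a and Lin28b bind precursors of let-7 and block their maturation. Bound precursors are tailed with uridines by Tut4 and Tut7, and Dis3l2 degrades RNAs tailed in this way. Mature let-7 in turn represses mRNAs that carry its sites, among them those of Lin28a, Lin28b, Trim71, Hmga2 and the Igf2bp genes, so that LIN28 and let-7 hold each other down. ES cells are known for high Lin28a and little mature let-7, and let-7 accumulates as cells differentiate. The Igf2bp proteins bind mRNAs, many of them carrying m6A, and stabilise them or set their translation.

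The sequences that join these genes are the mature let-7 arms, printed 5′ to 3′ from RefSeq (GRCm38.p6) with the seed, bases 2 to 8, in capitals. The seed is the stretch that pairs with target mRNAs. let-7d, let-7f and let-7g are shown because probe sets of their precursors passed a test below, let-7a and miR-98 because they show how far the family differs outside the seed, and miR-125a because it lies beside a let-7 gene.
let-7a-5p: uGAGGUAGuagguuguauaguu
let-7d-5p: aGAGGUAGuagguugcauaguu
let-7f-5p: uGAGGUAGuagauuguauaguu
let-7g-5p: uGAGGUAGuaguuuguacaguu
miR-98-5p: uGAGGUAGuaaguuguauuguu
miR-125a-5p: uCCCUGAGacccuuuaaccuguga
The let-7d arm lies at chr13:48536078-48536099 and the let-7f arm of Mirlet7f-1 at chr13:48537889-48537910, both on the minus strand. The let-7g arm lies at chr9:106178846-106178867 on the plus strand. The seed GAGGUAG was shared by 9 mature names, those of let-7a to let-7g, let-7i and miR-98. The 5p arms of miR-125 share the seed CCCUGAG and form a separate family.

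The values are log2 signals after robust multichip average (RMA) normalisation, averaged over the probe sets of a gene. Array signals depend on the probes, so levels were compared between days, for 1 gene or for the summed signal of a list. In such a sum the genes with the highest signals weigh most. Differences were tested with limma in 1 model over the 12 arrays, adjusted by Benjamini-Hochberg over all 19938 genes, and a gene was called at an adjusted p below 0.05. The comparisons against day 0 share the same 3 day 0 arrays. In RNA from whole cultures, a change in the share of cells that express a gene and a change in the RNA per cell cannot be told apart. The array medians lay between 7.27 and 7.35, and each array correlated with the mean of the other arrays of its day at 0.997 to 0.998. Esrrb itself had 11.59, 11.54 and 11.63 on the day 0 arrays, 9.09, 9.15 and 9.16 at day 1, 8.20, 8.07 and 8.34 at day 3, and 8.15, 8.28 and 8.13 at day 5, lower on every array labelled as without Dox. Of 8 ES cell markers, 7 had fallen by day 5, beside 17.6% of all genes. Zfp42 averaged 11.24 at day 0 and 9.65 at day 5. Dppa5a fell by 1.07 and Utf1 by 0.77 on the log2 scale.

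Over the time course, 6 of the 7 measured genes changed by limma's moderated F test, beside 45.6% of all genes; Trim71 was the exception. Lin28a, Lin28b, Igf2bp1, Igf2bp3 and Dis3l2 ended higher at day 5 than at day 0. Hmga2 fell by day 1, was lowest at day 3 and stood between its day 3 and day 0 values at day 5. At day 1 against day 0, 3 of the 7 were called, 2 higher and 1 lower, beside 10.9% of all genes (6.45% higher and 4.48% lower). At day 3 against day 0, 5 were called, 4 higher and 1 lower, beside 26.6% (13.5% higher and 13.1% lower). At day 5 against day 0, 5 were called, all higher, beside 35.0% (17.4% higher and 17.6% lower). The arrays of the 2 days did not overlap in 5 of the 7 genes at day 1, beside 30.3% of all genes, in 6 at day 3, beside 39.3%, and in 6 at day 5, beside 42.8%. The median change of the 7 genes was 0.19, 0.25 and 0.40 at days 1, 3 and 5 on the log2 scale, where the median over all genes was 0.01, 0.00 and -0.02.

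**Figure D1:**
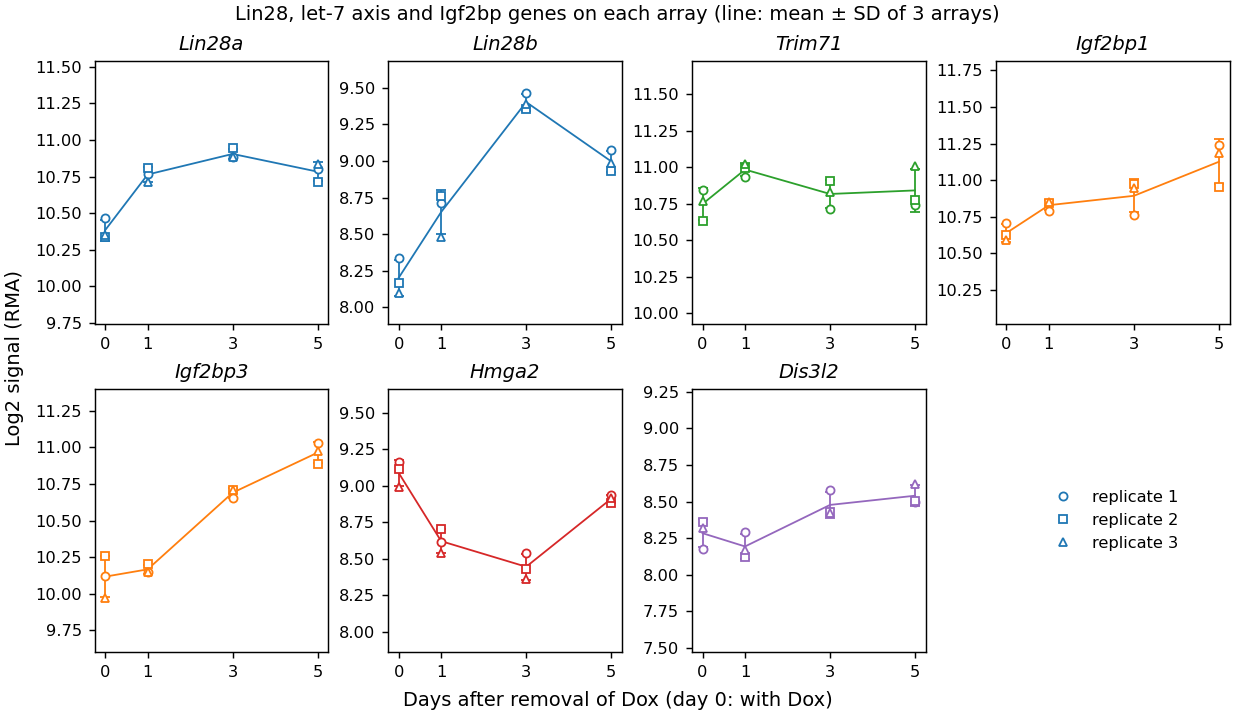
Log2 RMA signal of the 7 measured genes (vertical axes, each spanning the same 1.8 log2 units) against days after removal of Dox (horizontal axes); circles, squares and triangles are replicates 1 to 3, and lines join the day means with their SD (n = 3). Lin28b peaks at day 3, where its arrays lie between 9.35 and 9.47, Hmga2 is lowest there, between 8.37 and 8.54, and Igf2bp3 climbs to between 10.89 and 11.03 at day 5.

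Lin28b showed the widest range of the 7 genes. Its signal was 8.34, 8.17 and 8.10 at day 0, 8.71, 8.76 and 8.48 at day 1, 9.47, 9.35 and 9.39 at day 3, and 9.07, 8.93 and 8.99 at day 5. No 2 days overlapped: every day 3 array was above every other array, and every day 5 array was above those of days 0 and 1. The change against day 0 was 0.45 ± 0.08 at day 1 (SE, adjusted p = 0.0039), 1.20 ± 0.08 at day 3 (adjusted p = 3.2e-07) and 0.80 ± 0.08 at day 5 (adjusted p = 6.4e-06). The day 3 change is 2.30-fold on the linear scale and the day 5 change is 1.74-fold. Between days 1 and 3 Lin28b rose by 0.75 (adjusted p = 4.7e-05), and between days 3 and 5 it fell by 0.41 (adjusted p = 0.0028). A rise by day 3 followed by a fall was called in 4.36% of all genes.

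Lin28a, the member of the pair long used as an ES cell marker, was higher on every later day. Its signal was 10.47, 10.33 and 10.35 at day 0, 10.77, 10.81 and 10.72 at day 1, 10.89, 10.95 and 10.88 at day 3, and 10.80, 10.71 and 10.84 at day 5. Every array without Dox was above every day 0 array, whereas days 1 and 5 overlapped. The change against day 0 was 0.38 ± 0.06 at day 1 (adjusted p = 0.0011), 0.52 ± 0.06 at day 3 (adjusted p = 2.1e-05) and 0.40 ± 0.06 at day 5 (adjusted p = 1.2e-04), or 1.30-, 1.44- and 1.32-fold. Later steps did not pass the test: day 3 differed from day 1 by 0.14 (adjusted p = 0.11) and day 5 from day 3 by -0.12 (adjusted p = 0.16). Lin28a and Lin28b thus shared a call at each of the 3 days, which 2.67% of all genes had in the higher direction. Of the 8 ES cell markers, 4 were lower and 0 higher at day 1, 5 lower and 0 higher at day 3, and 7 lower and 0 higher at day 5. Of all genes, 4.48%, 13.1% and 17.6% were lower on these days, and 6.45%, 13.5% and 17.4% were higher.

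Trim71 encodes a ubiquitin ligase and RNA-binding protein that is itself a conserved let-7 target. Its signal was 10.85, 10.63 and 10.77 at day 0, 10.93, 10.99 and 11.02 at day 1, 10.72, 10.90 and 10.83 at day 3, and 10.74, 10.77 and 11.01 at day 5. The day 1 arrays lay above those of day 0, and the other days overlapped with day 0. None of the comparisons passed the test as fitted here. The difference from day 0 was 0.24 at day 1 (95% interval 0.06 to 0.41, adjusted p = 0.091) and 0.09 at day 5 (95% interval -0.09 to 0.27, adjusted p = 0.44), and the F test over the time course gave an adjusted p of 0.14.

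Igf2bp3, an RNA-binding protein of fetal tissues and many tumours, had the largest change of the 7 at day 5. Its signal was 10.12, 10.26 and 9.97 at day 0, 10.15, 10.20 and 10.15 at day 1, 10.65, 10.71 and 10.71 at day 3, and 11.03, 10.89 and 10.97 at day 5. Days 0 and 1 overlapped, and days 3 and 5 stood above both and apart from each other. The difference from day 0 was 0.05 ± 0.07 at day 1 (adjusted p = 0.74), 0.57 ± 0.07 at day 3 (adjusted p = 4.5e-05) and 0.85 ± 0.07 at day 5 (adjusted p = 7.5e-07). The day 5 change is 1.80-fold. In contrast to Lin28b, it rose again between days 3 and 5, by 0.27 (adjusted p = 0.011), an order of calls held by 2.81% of all genes.

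Igf2bp1, known for binding Igf2, Myc and beta-actin mRNAs, was called from day 3 on. Its signal was 10.71, 10.62 and 10.59 at day 0, 10.79, 10.84 and 10.85 at day 1, 10.76, 10.97 and 10.95 at day 3, and 11.24, 10.95 and 11.19 at day 5. All arrays without Dox were above those of day 0, and the ranges of days 3 and 5 overlapped. The difference from day 0 was 0.19 ± 0.08 at day 1 (adjusted p = 0.16), 0.25 ± 0.08 at day 3 (adjusted p = 0.031) and 0.49 ± 0.08 at day 5 (adjusted p = 3.1e-04). Igf2bp1 was the only measured gene of the 7 with more than 1 probe set. Its 2 probe sets changed by 0.58 (adjusted p = 0.0033) and 0.39 (adjusted p = 8.4e-04) at day 5, each adjusted over all probe sets. The step between days 3 and 5, 0.23 (adjusted p = 0.048), did not pass in either probe set alone (adjusted p = 0.13 and 0.067) and was lost without most single arrays. The day 3 call was lost without day 0 replicate 2 or 3 or day 3 replicate 2 or 3, with adjusted p up to 0.12 over all alternatives.

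Hmga2, an architectural chromatin protein and the best-known let-7 target, was the only gene of the 7 called lower than day 0. Its signal was 9.16, 9.11 and 8.99 at day 0, 8.61, 8.71 and 8.54 at day 1, 8.54, 8.43 and 8.37 at day 3, and 8.93, 8.88 and 8.92 at day 5. Every array without Dox was below every day 0 array, and the day 5 arrays stood between those of day 0 and those of days 1 and 3. The change against day 0 was -0.47 ± 0.07 at day 1 (adjusted p = 6.9e-04) and -0.64 ± 0.07 at day 3 (adjusted p = 1.2e-05), and the day 5 difference of -0.18 ± 0.07 did not pass the test (adjusted p = 0.057), although it did under 7 of 21 alternative settings. It gained 0.46 between days 3 and 5 (adjusted p = 2.3e-04). A fall by day 3 followed by a rise was called in 3.03% of all genes.

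Genes of 2 kinds shared part of the course of Hmga2. The fibroblast collagen genes Col1a1 and Col1a2 fell by 0.98 and 1.44 at day 3 (adjusted p = 2.0e-05 and 2.3e-07), and rose by 0.96 and 1.24 between days 3 and 5. Over 15 fibroblast markers, 7 were lower and 1 higher at day 3, beside 13.1% lower and 13.5% higher of all genes. Their log2 summed signals were 11.18 to 11.22 at day 3 and 11.61 to 11.83 at day 0. Between days 3 and 5, 6 of the 15 rose and 1 fell, beside 13.0% and 12.2% of all genes. Prrx1 stayed low, with means of 7.81, 6.52 and 6.54 at days 0, 3 and 5. Thy1 went the other way, with 7.66, 8.03 and 7.38. None of the 15 was called at day 1 (1 with array weights). At day 1 Col1a1 and Col1a2 averaged 9.24 and 9.34, against 9.43 and 9.54 at day 0. Prrx1 lay at 7.58 to 7.66 at day 1, below its day 0 arrays of 7.74 to 7.88. Per the labels and methods the lines were maintained on mouse embryonic fibroblasts, a source of fibroblast RNA, and were moved to gelatin without feeders for the experiments. Nanog, a homeodomain factor of the ES cell network, fell by 0.80 at day 1 and by 0.25 at day 5 against day 0. Its day means were 12.03, 11.23, 11.41 and 11.78 at days 0, 1, 3 and 5. Nanog was thus lowest at day 1, whereas Hmga2 was lowest at day 3. The part of fibroblast RNA or of Nanog in the change of Hmga2 was not tested.

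**Figure D2:**
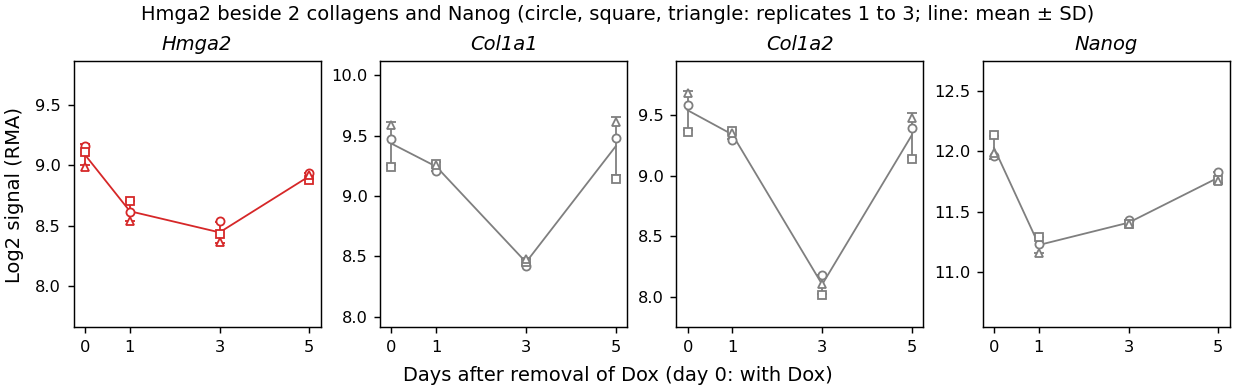
Log2 RMA signal (vertical axes, each spanning 2.2 log2 units) of Hmga2, Col1a1, Col1a2 and Nanog by day after removal of Dox; circles, squares and triangles are replicates 1 to 3, lines are day means with SD (n = 3). Hmga2 is lowest at day 3 and Nanog at day 1. Col1a2 averages 9.54 at day 0, 9.34 at day 1 and 8.10 at day 3. The collagens are 2 of the 15 fibroblast markers, which did not all share this course.

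Dis3l2, the exonuclease that degrades uridylated let-7 precursors, changed little and late. Its signal was 8.18, 8.36 and 8.32 at day 0, 8.29, 8.12 and 8.17 at day 1, 8.58, 8.43 and 8.42 at day 3, and 8.50, 8.50 and 8.62 at day 5. Days 3 and 5 stood above days 0 and 1 and overlapped with each other. The difference from day 0 was -0.09 ± 0.07 at day 1 (adjusted p = 0.51), 0.19 ± 0.07 at day 3 (adjusted p = 0.067) and 0.26 ± 0.07 at day 5 (adjusted p = 0.014). The day 5 call rested on single arrays: leaving out day 0 replicate 1 gave an adjusted p of 0.065, and leaving out day 5 replicate 3 gave 0.062.

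**Figure D3:**
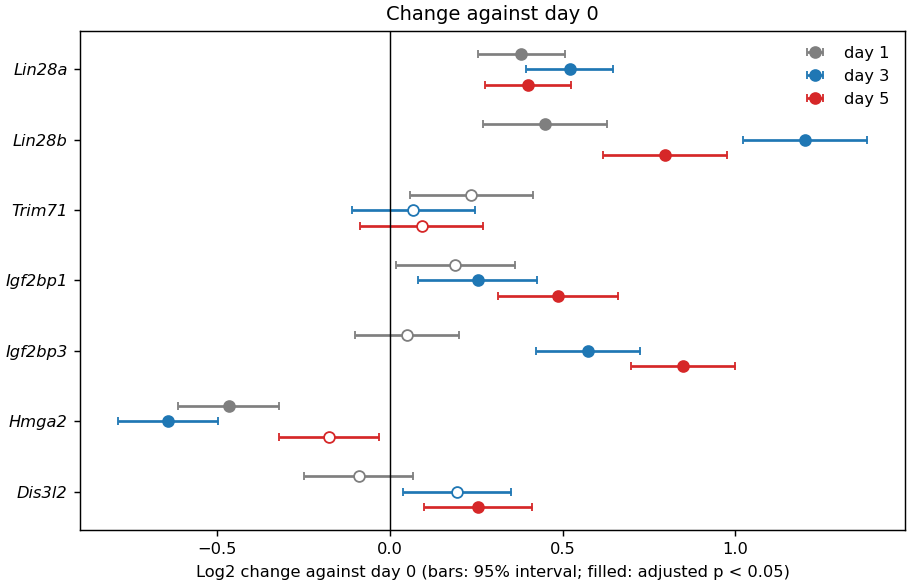
Log2 change against day 0 of the 7 measured genes (rows) at days 1, 3 and 5; points are limma estimates, bars their 95% intervals, and filled points have an adjusted p below 0.05. Lin28b at day 3 (1.20) lies farthest to the right, Hmga2 at day 3 (-0.64) farthest to the left, and all 3 points of Trim71 are open.

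The days without Dox also differed among themselves. At day 3 against day 1, 3 were called, all higher (Lin28b, Igf2bp3 and Dis3l2), beside 20.8% of all genes (9.20% higher and 11.6% lower), and the arrays of 6 did not overlap, beside 40.4%. At day 5 against day 3, 4 were called (Igf2bp1, Igf2bp3 and Hmga2 higher, Lin28b lower), beside 25.3% (13.0% higher and 12.2% lower), and the arrays of 4 did not overlap, beside 38.9%. At day 5 against day 1, 5 were called, all higher, beside 33.0% (15.5% higher and 17.5% lower), and the arrays of 5 did not overlap, beside 45.5%. The largest of these changes was that of Igf2bp3 with 0.80 (adjusted p = 1.8e-06), and Hmga2 was 0.29 higher (adjusted p = 0.0042).

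The genes whose course over the 12 arrays was most like each of the 6 changing genes were looked up among 8808 genes that passed the F test, those left of 9083 once the genes described here and genes with clone or model names were set aside. These correlations describe genes selected for likeness on arrays that share the 4 days. Lin28b was followed most closely by Ugt8a (r = 0.989) and Stag2, a cohesin subunit (r = 0.986), and Lin28a by Sall2 (r = 0.974) and Slc43a1 (r = 0.968). Igf2bp3 was matched by Pde5a and the receptor gene Erbb3 (both r = 0.991), and Igf2bp1 by the cell cycle kinase gene Cdk6 (r = 0.977), itself a let-7 target, and Ptk7 (r = 0.959). Hmga2 was matched by Hsdl2 (r = 0.982) and Aff1 (r = 0.979), and Dis3l2 by Slc25a30 (r = 0.946) and Micu2 (r = 0.944).

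The let-7 precursors themselves held few calls. Of 12 listed family genes, 10 had a probe set, and none was called at day 1 or day 3 against day 0. Such probe sets lie over short hairpins and do not read mature microRNA, so these values say nothing of mature let-7. At day 5, 2 were higher and 1 was lower than at day 0, beside 17.4% and 17.6% of all genes. Mirlet7d had 7.56, 7.89 and 7.71 at day 5, against 7.42, 7.50 and 7.38 at day 0, a difference of 0.29 ± 0.09 (adjusted p = 0.023) with no overlap. Mirlet7f-1 had 6.77, 6.60 and 6.97 at day 5, against 6.22, 6.73 and 5.99 at day 0 (0.47 ± 0.15, adjusted p = 0.031). Mirlet7g had 5.69, 5.66 and 5.99 at day 5, against 6.49, 5.95 and 6.04 at day 0 (-0.38 ± 0.14, adjusted p = 0.047). In both of these the days overlapped, and the F test of Mirlet7g did not pass (adjusted p = 0.067). All 3 calls were lost without day 0 replicate 1, and both higher ones also without day 0 replicate 3 or day 5 replicate 3. The day means of the other 7 precursors lay between 3.71 for Mirlet7c-1 at day 3 and 7.51 for Mirlet7i at day 1. Of 3 miR-125 precursors none was called against day 0.

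**Figure D4:**
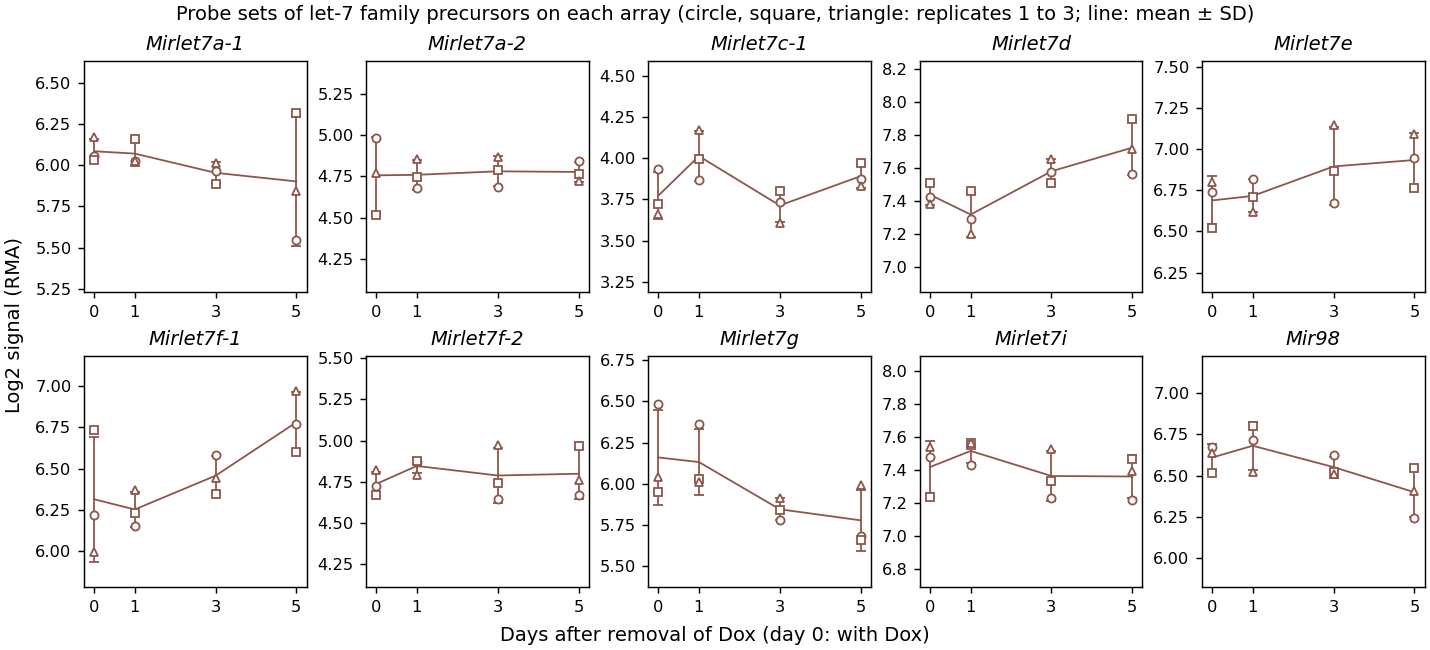
Log2 RMA signal (vertical axes, each spanning 1.4 log2 units) of probe sets for 10 let-7 family precursors by day after removal of Dox; circles, squares and triangles are replicates 1 to 3, lines are day means with SD (n = 3). Only Mirlet7d, Mirlet7f-1 and Mirlet7g differ at day 5 from day 0 by the test, and replicates of several precursors spread as widely as the days do.

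Of 15 factors that process or decay let-7 precursors, 4 were higher and 1 was lower at day 5 than at day 0, beside 17.4% higher and 17.6% lower of all genes. The list's median change was 0.09, where all genes had -0.02. Prkra, a partner of Dicer, was higher by 0.59 at day 3 (adjusted p = 2.4e-04) and by 0.46 at day 5 (adjusted p = 0.0010). Tut4, the uridylyltransferase that acts with Lin28a, was higher by 0.25 at day 3 (adjusted p = 0.015) and by 0.35 at day 5 (adjusted p = 0.0011), with 10.21, 10.22 and 10.24 at day 5 against 9.94, 9.93 and 9.75 at day 0. Tarbp2, the other Dicer partner, was higher at day 1 alone among the days without Dox (0.33, adjusted p = 0.0089). Ddx17, a helicase of the Drosha complex, was higher at day 3 (0.16, adjusted p = 0.041) and lower at day 5 (-0.17, adjusted p = 0.026). The count of 4 became 2 without day 5 replicate 3, and Ddx17 lost its day 3 call in 8 of the 12 fits that left out 1 array, and its day 5 call without day 0 replicate 1 or 2 or day 5 replicate 1 or 3.

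Among 19 other let-7 targets with a probe set, of 23 listed, 12 had risen by day 5, where 17.4% of all genes were higher. None had fallen, although 1 did under 7 of the alternative settings. Their median change was 0.42, against -0.02 over all genes. At day 1, 5 were higher, beside 6.45% of all genes, and at day 3, 8 were higher and 3 lower, beside 13.5% and 13.1%. Nr6a1, the germ cell nuclear factor that shuts off Oct4 as cells differentiate, had 10.61, 10.45 and 10.60 at day 5 and 9.13, 9.09 and 9.10 at day 0, a rise of 1.45 ± 0.06 (adjusted p = 1.9e-09). It was already higher by 0.32 at day 1 and by 0.85 at day 3. Igf1r and Insr, the receptors for Igf1 and Igf2 and for insulin, rose by 1.18 ± 0.08 and 0.88 ± 0.06 at day 5 (adjusted p = 1.8e-07 and 1.2e-07). Thbs1, a matricellular glycoprotein, was also lowest at day 3: it fell by 1.40 at day 3 (9.74, 9.61 and 10.00 at day 3 against 11.32, 11.13 and 11.09 at day 0, adjusted p = 2.8e-06) and gained 1.71 between days 3 and 5.

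The Igf genes, among which Igf2 mRNA gave the Igf2bp proteins their name, changed mostly at day 5. Of 14 measured ligands, receptors, substrates and binding proteins, 1 was higher and 1 lower at day 1, 4 higher and 1 lower at day 3, and 10 higher and 1 lower at day 5, with a median day 5 change of 0.51. The shares over all genes were 6.45% and 4.48% at day 1, 13.5% and 13.1% at day 3, and 17.4% and 17.6% at day 5. Igf1r, Insr and Irs2 stand in this list and in that of let-7 targets. Igf2 had 10.55, 10.35 and 10.56 at day 5, against 9.05, 8.81 and 8.99 at day 0, a rise of 1.53 ± 0.07 (adjusted p = 7.6e-09), while its day 3 difference was 0.17 (adjusted p = 0.12). Igfbp3, which carries Igfs outside cells, rose by 0.66 at day 3 and 2.60 ± 0.14 at day 5 (adjusted p = 2.4e-08), and Igfbp4 by 1.64 ± 0.10 at day 5 (adjusted p = 4.1e-08). Igfbp7 fell by 0.98 at day 3 and 0.97 at day 5 (adjusted p = 1.2e-07 at day 5).

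**Figure D5:**
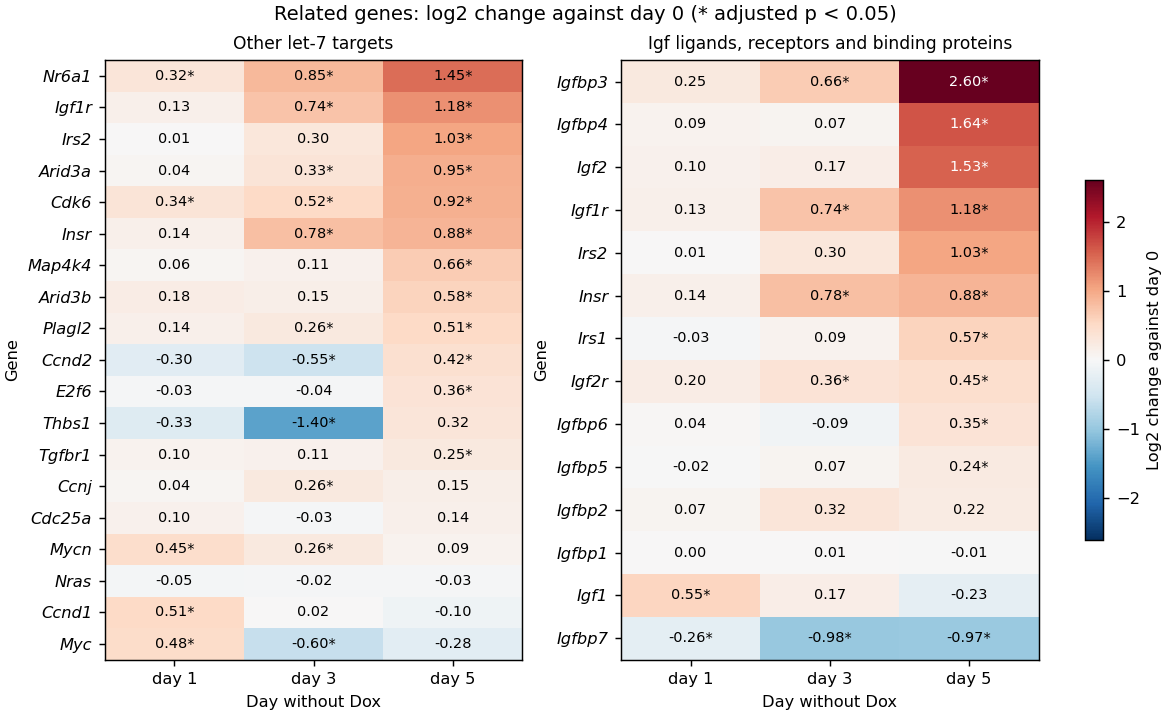
Log2 change against day 0 of 19 other let-7 targets and 14 Igf genes (rows, ordered by the day 5 change) at days 1, 3 and 5 (columns); red is higher and blue lower than day 0, and a star marks an adjusted p below 0.05. Most red cells with a star stand in the day 5 column, led by Igfbp3 (2.60) among the Igf genes and Nr6a1 (1.45) among the other let-7 targets, and Thbs1 at day 3 (-1.40) is the deepest blue.

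The RNA exosome and the Dis3 nucleases form the 3′ decay machinery to which Dis3l2 is related. Of 11 measured genes 4 rose at day 1 and none fell, whereas at day 5 none had risen and 5 had fallen, with a median change of -0.20. Of all genes, 6.45% were higher at day 1 and 17.6% lower at day 5. Without day 0 replicate 1 these counts were 2 and 3. Exosc2 changed by 0.26 at day 1 (adjusted p = 0.0071) and by -0.32 at day 5 (adjusted p = 4.2e-04), and Exosc5 by 0.29 at day 1 and -0.40 at day 5 (adjusted p = 2.6e-04 at day 5). Exosc1 was lower at day 5 (-0.30, adjusted p = 6.3e-04), and Exosc7 was higher at days 1 and 3 (0.25 and 0.29). Of 13 writers, erasers and YTH readers of m6A, the mark that Igf2bp proteins recognise, 2 were higher and 1 lower at day 5, shares no larger than the 17.4% and 17.6% of all genes. Alkbh5, an eraser, was higher by 0.32 (adjusted p = 0.0011) and Virma, a writer subunit, by 0.30 (adjusted p = 0.0019), while the writer subunit Wtap fell by 0.22 (adjusted p = 0.0091). The writer-associated Cbll1 was lower at day 3 (-0.17, adjusted p = 0.048), but its F test did not pass (adjusted p = 0.075).

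Genes listed as markers of differentiated cells moved over the same days, in both directions. Of 12 primitive and visceral endoderm markers, the test called 6 at day 1, all of them up, beside 6.45% higher of all genes. It called 2 at day 3, in opposite directions, beside 13.5% higher and 13.1% lower of all genes. At day 5 it called 9, of which 6 had risen and 3 had fallen, beside 17.4% and 17.6% of all genes. Sox17 and Foxa2 were 0.80 and 0.73 higher at day 5. Amn and Cubn, with means of 9.36 and 12.35 in Dox at day 0, fell by 1.30 and 1.33. The log2 summed signal of the 12 was 13.43 to 13.47 at day 0 and 13.72 to 13.74 at day 1. It was 13.39 to 13.50 at day 3, which overlapped with day 0, and 13.02 to 13.34 at day 5. Cubn had the highest signal of the 12 and weighs most in this sum, with day means of 12.35, 12.79, 12.41 and 11.02. At day 5 the sum was below day 0 although 6 of the 12 had risen, so it does not describe the list as a whole. Of the fibroblast markers, Prrx1 fell by 1.27 at day 5 and Postn fell by 0.53 at day 3, while Col5a1 was higher at day 5 by 0.28. The part of such cells in the changes of the 7 genes was not tested.

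The stretch before the transcription start was read for the Esrrb-type motif TCAAGGTCA on both strands. It was in none of the 250-base windows of the 7 genes of the 8 that have one (all but Igf2bp1), and in 0.387% of 32851 RefSeq promoter windows. CACGTG, a palindromic E-box, was in 2 of the 7 windows, those of Lin28b and Igf2bp3, and in 6.02% of all windows. This motif was chosen after the sequences had been seen, and its relation to the changes was not tested. It is in capitals in the windows below, 250 bases up to the annotated start on the gene's own strand (GRCm38.p6, RefSeq), both on the minus strand.
Lin28b, chr10:45470202-45470451: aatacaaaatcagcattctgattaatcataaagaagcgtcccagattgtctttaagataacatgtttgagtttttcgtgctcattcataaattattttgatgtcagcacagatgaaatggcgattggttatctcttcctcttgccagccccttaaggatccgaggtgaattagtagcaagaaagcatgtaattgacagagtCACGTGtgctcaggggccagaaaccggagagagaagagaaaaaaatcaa
Igf2bp3, chr6:49214955-49215204: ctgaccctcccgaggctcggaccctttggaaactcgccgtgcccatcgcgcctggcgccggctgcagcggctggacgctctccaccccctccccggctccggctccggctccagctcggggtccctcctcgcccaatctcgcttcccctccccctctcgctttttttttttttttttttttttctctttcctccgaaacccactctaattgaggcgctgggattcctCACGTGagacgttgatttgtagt
The first base of the motif is at -49 in Lin28b and -23 in Igf2bp3, counted back from the start. A match describes the letters alone: binding was not measured on these arrays, and each window belongs to 1 annotated start, which in Lin28b lies inside the annotated span of the gene.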

How the data were processed

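Total RNA of 12 cultures was hybridised to Affymetrix Mouse Gene 1.0 ST arrays. The authors normalised them by RMA in the Affymetrix Expression Console and deposited log2 values for 35557 probe sets, with no array intensities used here; version and settings are not given in the sources used here. Gene names came from the platform annotation: 21789 probe sets had 1 symbol, 1621 several and 12147 none, and the log2 values of probe sets with 1 symbol were averaged for each of 19938 genes, as in the methods. limma 3.58.1 (R 4.3.3) was fitted with a mean per day over all 12 arrays (8 residual and 4.63 prior degrees of freedom), with tests of the 6 pairs of days and a moderated F test of the 3 changes against day 0. All p-values are two-sided and adjusted by Benjamini-Hochberg over all genes. The number of arrays limits the precision. The fit was tested on simulated data. For the 3 comparisons with day 0 it found 14% to 24% of changes of 0.25 log2 units. It found 74% to 80% of changes of 0.5 and 98% of changes of 1, so changes of 0.25 were mostly missed there. Only 50 of the 19938 genes were changed at each size, a smaller share than was called in the data. The adjusted p was therefore harder to pass than in the data, and these percentages do not carry over to it. No dim genes were left out.

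The genes and the related lists were chosen with earlier results of these data known. From each list up to 4 genes with the smallest adjusted p of the F test among those called against day 0, and up to 2 called at day 5 against the list's direction, were named. For each changing gene the 2 most correlated other genes were named. Alternatives were a replicate block, each array left out, median centring, quantile normalisation, the brightest or every probe set, only brighter genes, a trended robust variance, array weights, fits to 2 days alone, and the methods' test, a one-way analysis of variance with Bonferroni correction and a fold limit. The labels number the replicates 1 to 3 on each day. Of 18 pairs of arrays with the same number on different days, 0 had deviations from the day means that correlated above 0.1 (range -0.17 to 0.07), so the numbers were not used as pairs. Motifs and sequences were read from RefSeq tables with Python 3.11.15.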

Additional observations from a re-analysis of the deposited data

Results flagged for a closer look

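For 3 of the 7 genes the change between days 3 and 5 differed from the change between days 0 and 3, by a limma test of the difference itself that was chosen after the data had been seen, adjusted over all genes, where 21.5% of all genes passed. Both intervals use the day 3 arrays. The interval from day 0 to day 3 is longer than that from day 3 to day 5, and the test did not scale for this. A change at a steady rate would thus also give a difference. For Lin28b the difference was -1.61 on the log2 scale (adjusted p = 7.1e-06): it rose by 1.20 by day 3 and fell by 0.41 between days 3 and 5. For Lin28a it was -0.64 (adjusted p = 5.3e-04), with a rise of 0.52 by day 3 and a later difference of -0.12 that did not pass the test. For Hmga2 it was 1.11 (adjusted p = 2.3e-05): it fell by 0.64 by day 3 and then rose by 0.46. In each of the 3 genes, the arrays of day 5 did not overlap with those of day 3, as in 38.9% of all genes. The test that picked the 3 used these same arrays, so this is no separate support.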

How the results depend on the processing

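Over 882 alternatives to the 42 differences of the 7 genes, 831 kept direction and side of the threshold, 27 lost and 19 gained a call, and 5 changed sign. All calls of Lin28a, Lin28b and Igf2bp3, and those of Hmga2 at days 1 and 3 against day 0 and at day 5 against days 1 and 3, were kept under all 21 alternatives. The 5 sign changes were in differences near 0 that passed no test, and all came from leaving out 1 array: Igf2bp3 at day 1 against day 0 ranged from -0.022 to 0.12 (negative without day 0 replicate 3), Trim71 at day 5 against day 3 from -0.060 to 0.075 (negative without day 3 replicate 1 or day 5 replicate 3), and Lin28a at day 5 against day 1 from -0.0071 to 0.055 (negative without day 1 replicate 3 or day 5 replicate 3). Esrrb at day 5 against day 3 (-0.01) was 0.0090 with centred medians, 0.0018 with quantile normalisation, and -0.084 to 0.054 without 1 array. With each array left out in turn, 3 genes were called at day 1, 4 to 5 at day 3 and 4 to 6 at day 5 against day 0, 2 to 3 at day 3 against day 1, 3 to 4 at day 5 against day 3, 4 to 6 at day 5 against day 1, and 6 over the time course. Without dim genes, 5 were called at day 3 against day 1 (Lin28a and Hmga2 gained), where fewer genes were tested. By the methods' test, with Bonferroni correction and a fold limit, 0 of the 7 and 420 of all genes passed; Lin28b, whose range of 1.20 was past the limit, had a corrected p of 0.098.

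The Igf2bp1 step between days 3 and 5 was lost in 15 of 21 alternatives (adjusted p up to 0.18). The Dis3l2 call at day 3 against day 1 was lost without day 1 replicate 2 (0.061) or day 3 replicate 1 (0.059), and that of Igf2bp1 at day 5 against day 1 without day 5 replicate 1 (0.0501). The Hmga2 difference at day 5 against day 0 was called in 7 of 21. Trim71 was called at day 1 against day 0 with a trended robust variance (0.022) and once dim genes were left out (0.029). With a replicate block, Igf2bp1 lost its calls at day 3 against day 0 (adjusted p = 0.053, 4 genes called) and at day 5 against day 3 (adjusted p = 0.077, 3 called), and Hmga2 gained one at day 5 against day 0 (adjusted p = 0.049, 6 called); the replicates share only a number. All 7 genes were brighter than the median gene. Among the related lists, counts that moved by over 1.5 times included the let-7 precursors at day 5 (2 higher, 0 to 2 over the alternatives; 1 lower, 0 to 2), the let-7 processing factors at day 1 (2 higher, 0 to 3) and at day 3 (3 higher, 1 to 5), the Igf genes lower at day 5 (1, up to 2), the m6A genes lower at day 5 (1, 0 to 3) and at day 3 (2, 0 to 3), and the fibroblast markers lower at day 3 (7, 3 without dim genes).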
